A study of Mus musculus with 72 samples.

Results

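The comparison was made between lung tumours of mice given the circuit CMV-GE11-siRE and lung tumours of mice given the circuit CMV-siRE, with 4 RNA sequencing libraries from each, 8 of the 72 libraries of the series. The members are the libraries whose labels name the tumour and 1 of these circuits. CMV-GE11-siRE encodes an siRNA against EGFR together with GE11, a peptide that binds EGFR, and CMV-siRE encodes the same siRNA without the peptide. All animals were EGFR DEL19 transgenic mice that received doxycycline for 25 days, and then the circuit at 10 mg/kg into a vein every 2 days, in 7 injections, with day 14 as the labelled time. DEL19 is a deletion in the kinase region of human EGFR that leaves the receptor active without its ligand. The labels name neither the promoter that drives the transgene nor whether the libraries of a group came from separate animals, so the p-values reflect only how these samples vary, which may be technical. Another 4 tumour libraries, from mice given the scrambled circuit CMV-scrR, entered the fit to share its estimate of the spread. They also counted in the choice of the genes tested, in the mean sum used for rescaling and in other means over all tumour libraries.

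EGFR sits at the cell surface, pairs with its relatives ErbB2 and ErbB3 when a ligand binds, and passes the signal through adaptor proteins to the MAP kinase and PI3 kinase pathways. The genes that these pathways switch on include phosphatases and Sprouty proteins that damp the same signal. Many EGFR-driven lung tumours in mice keep the appearance of alveolar type 2 cells, which make surfactant. An siRNA loaded into an Argonaute protein directs the cleavage of the transcript it matches.

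Transcripts of the mitochondrial genome, which encodes subunits of the respiratory chain, made up a far smaller share of the tumours given CMV-GE11-siRE. The 13 mitochondrially encoded genes in the table held 8.04%, 37.9%, 17.5% and 19.0% of the summed values in CMV-GE11-siRE replicates 1 to 4, and 45.0%, 61.3%, 73.1% and 61.0% in CMV-siRE replicates 1 to 4. The groups did not overlap, with the narrowest distance between CMV-GE11-siRE replicate 2 and CMV-siRE replicate 1. The mean share was 20.6% ± 12.5 with CMV-GE11-siRE and 60.1% ± 11.6 with CMV-siRE (SD, n = 4 each; two-sided exact permutation p = 0.0286, the smallest that 4 against 4 libraries allow). In the 40 libraries of lung, liver, kidney, spleen and thymus from mice given these 2 circuits the share lay between 0.558% and 12.7%. In bulk samples, fewer cells of a type and less RNA per cell cannot be told apart.

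The deposited values are normalized, but their sums differed widely between the tumours. With M as the prefix mega, they came to 5.87, 9.48, 6.39 and 6.64 M in CMV-GE11-siRE replicates 1 to 4, against 12.2, 18.9, 43.8 and 20.2 M in CMV-siRE replicates 1 to 4. Leaving out the mitochondrially encoded genes brought the sums to 5.39, 5.88, 5.27 and 5.38 M with CMV-GE11-siRE, and to 6.71, 7.33, 11.8 and 7.89 M with CMV-siRE. A second set of values was therefore made by scaling every library to the same sum without mitochondrial genes, called here the non-mitochondrial scale. Moving to that scale raised the median log2 difference of all 14044 genes tested to 0.62 with CMV-GE11-siRE over CMV-siRE, against 0.05 with deposited values, a shift of 0.57 that applies to nearly every gene.

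The sum without mitochondrial genes still held mitochondrial sequence. The annotated nuclear genome carries copies of mitochondrial DNA, and 17 genes in the table matched a mitochondrial transcript at 90% identity or more over at least 100 bases. Of these, 5 on chromosome 1 had a mean above 100000 and carried more than 99.9% of the value of the 17 in every tumour library. Gm28661 matched mt-Co2 and Gm28437 matched mt-Co3 without a mismatch over 681 and 783 bases, Gm10925 matched mt-Atp6 without one over 678 bases, and Gm29216 and Gm28438 matched mt-Co1 and mt-Nd3 with 1 mismatch each over 483 and 345 bases. Reads from such pairs can hardly be assigned to one or the other, so the values of both are uncertain. A stretch of a perfect pair and of a pair with a mismatch is shown to let the identity be seen, with mismatched bases in capitals. The genes lie in GRCm38 at chr1:24614885-24615565 on the minus strand for Gm28661, chrM:7013-7696 on the plus strand for mt-Co2, chr1:24615706-24616197 on the minus strand for Gm29216 and chrM:5328-6872 on the plus strand for mt-Co1. All 3 pairs printed here are GENCODE M21 transcript sequences, 5′ to 3′ on the transcript.
Gm28661, bases 1 to 120: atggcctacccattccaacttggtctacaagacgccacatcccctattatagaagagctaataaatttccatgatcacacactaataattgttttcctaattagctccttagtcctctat
mt-Co2, bases 1 to 120: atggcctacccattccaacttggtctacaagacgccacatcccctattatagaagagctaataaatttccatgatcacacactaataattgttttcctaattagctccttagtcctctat
Gm29216, bases 10 to 129: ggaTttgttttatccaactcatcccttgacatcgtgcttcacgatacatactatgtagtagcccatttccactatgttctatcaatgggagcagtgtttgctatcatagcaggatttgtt
mt-Co1, bases 1063 to 1182: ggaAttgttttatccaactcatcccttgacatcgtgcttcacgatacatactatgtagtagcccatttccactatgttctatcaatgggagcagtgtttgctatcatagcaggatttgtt

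The 17 copies made up 1.48%, 9.79%, 3.89% and 4.49% of the sum without mitochondrial genes in CMV-GE11-siRE replicates 1 to 4, against 13.6%, 29.7%, 45.7% and 28.2% in CMV-siRE replicates 1 to 4. They followed the mitochondrial genes from library to library: for 100 units of mitochondrially encoded value, the 12 tumour libraries had between 14.2 and 19.2 units of copies. With the copies left out as well, the sums were 5.31, 5.31, 5.07 and 5.14 M with CMV-GE11-siRE and 5.80, 5.16, 6.38 and 5.66 M with CMV-siRE. A scaling to these sums, added after the data were seen, placed the median of all genes at 0.18. It lies 0.14 above the deposited values, and the groups' sums then overlap.

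**Figure D1:**
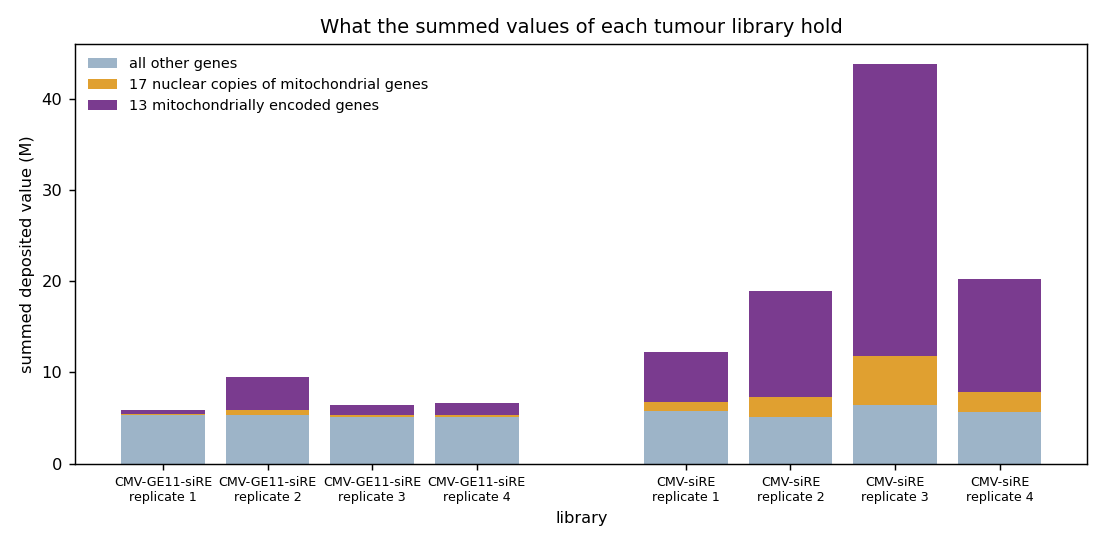
Summed deposited values of the 8 tumour libraries, in M (y axis), split into the 13 mitochondrially encoded genes, the 17 nuclear copies of mitochondrial genes and all other genes. The bars of all other genes lie between 5.07 and 6.38 M, while the mitochondrial and copy parts are larger in each CMV-siRE library than in any CMV-GE11-siRE library.

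The human EGFR transcript, the message of the transgene and the target of the siRNA, fell with CMV-GE11-siRE relative to CMV-siRE. The deposited values of the transcript (ENST00000275493.7, placed as a row of its own among mouse genes) were 91.2, 79.8, 39.2 and 132 in CMV-GE11-siRE replicates 1 to 4, and 890, 452, 718 and 1324 in CMV-siRE replicates 1 to 4. All CMV-GE11-siRE libraries lay below all CMV-siRE libraries, and the highest CMV-GE11-siRE value was in replicate 4. The means of 85.7 ± 38.4 and 845.9 ± 366 (SD, n = 4 each) place CMV-GE11-siRE at 10.1% of CMV-siRE, a log2 difference of -3.31 ± 0.38 (SE; limma adjusted p = 0.00635). On the non-mitochondrial scale the values were 131, 105, 57.8 and 191 with CMV-GE11-siRE, and 1030, 478, 474 and 1304 with CMV-siRE. The means were 121 ± 55.6 and 821 ± 414, with CMV-GE11-siRE at 14.8% of CMV-siRE and a log2 difference of -2.73 ± 0.38 (SE; limma adjusted p = 0.0383). The groups stayed apart, and the two-sided exact permutation p was 0.0286 on both scales. With the nuclear copies left out as well, the difference was -3.17 (limma adjusted p = 0.00871). Scaled to the full column sum, which lets the mitochondrial transcripts in, it was -1.71 and the groups overlapped (exact permutation p = 0.0571, n = 4 each). A fit of only these 8 libraries did not pass on either scale (limma adjusted p = 0.0864 and 0.0617), nor did a fit with the mitochondrial share as a covariate, at -3.36 and -3.43. That share did not overlap between the groups, so the covariate fit can hardly tell circuit and share apart.

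Ratios within a library do not depend on its scaling. The log2 ratio of human EGFR to mouse Egfr was 0.76, 1.89, -0.11 and 1.35 in CMV-GE11-siRE replicates 1 to 4, and 5.55, 3.15, 7.38 and 3.59 in CMV-siRE replicates 1 to 4, without overlap. It was lower with CMV-GE11-siRE by a mean difference of -3.95. In CMV-siRE replicate 3 the ratio rests on a deposited mouse Egfr value of 4.30, where the most frequent low value of the library was 2.66. No pseudocount was added to this ratio. Without that library the mean difference was -3.12. Against summed epithelial genes the difference was -3.42, against alveolar type 2 genes -4.27 and against club cell genes -3.89. None of the 4 ratios overlapped between the groups (two-sided exact permutation p = 0.0286 each, and 0.0286 after adjustment over the 4, n = 4 each). All 4 share human EGFR as the numerator, so they are not independent. Each p is the smallest that 4 against 4 libraries allow, and adjustment leaves 4 equal values unchanged. The distance between the groups was smallest for the ratio to mouse Egfr, whose highest CMV-GE11-siRE library was at 1.89 and whose lowest CMV-siRE library was at 3.15. The denominators themselves varied between libraries, as given below for each list.

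**Figure D2:**
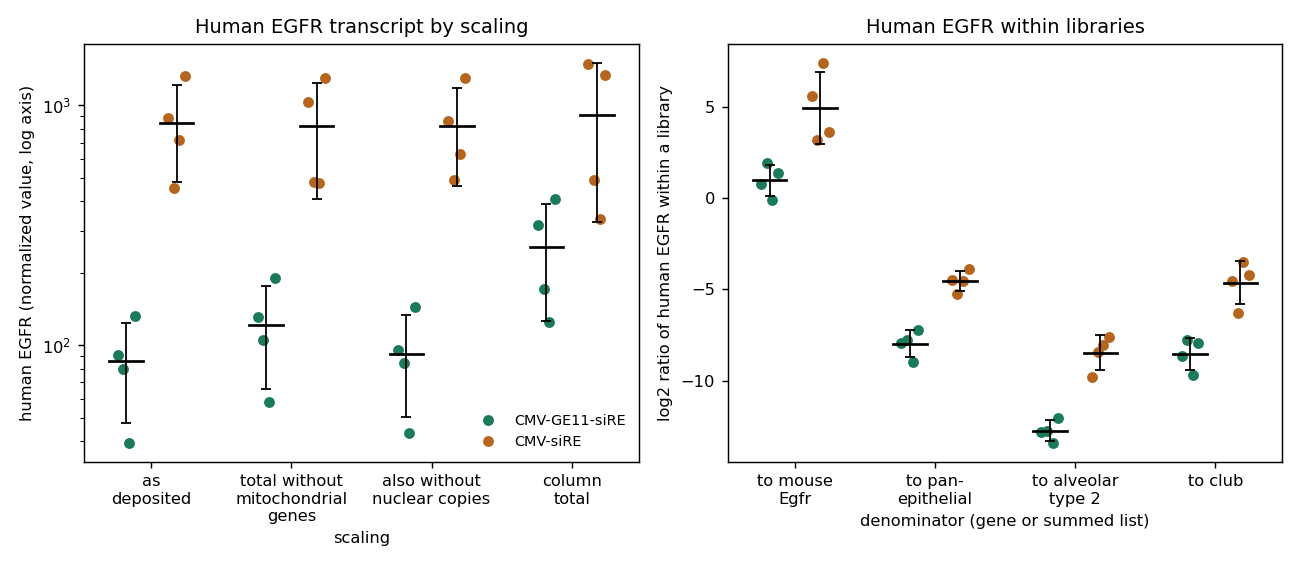
Left, human EGFR in each library under 4 scalings (log axis). Right, the log2 ratio of human EGFR to mouse Egfr or to a summed gene list within a library. Points are libraries, 4 a group, with CMV-GE11-siRE to the left of CMV-siRE, and bars are the mean ± SD. The groups are apart in each case except the scaling to the column total.

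With the deposited values, 3 of 14044 genes passed (limma, Benjamini-Hochberg adjusted p under 0.05; 0.0214% called). Human EGFR and Gm20594 fell (0.0142%) and Bglap3 rose (0.00712%). A further reading by unadjusted p under 0.05 held 3677 genes. All CMV-GE11-siRE libraries lay above all CMV-siRE libraries in 843 genes (6.0%) and below them in 990 (7.05%). Of the 3, only human EGFR kept its call when each of the 12 tumour libraries was left out in turn. The median within-group SD over genes was 0.30 on the log2 scale in the CMV-GE11-siRE libraries, against 0.56 in the CMV-siRE libraries.

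Bglap3 belongs to the osteocalcin family, whose best known member is a bone matrix protein. It lies on chromosome 3 at chr3:88368616-88372743, minus strand (GRCm38). Its deposited values were 396, 335, 519 and 128 in CMV-GE11-siRE replicates 1 to 4, and 70.4, 30.3, 31.6 and 20.4 in CMV-siRE replicates 1 to 4, without overlap. The log2 difference was 3.12 ± 0.45 (SE; limma adjusted p = 0.0451), and 3.70 ± 0.52 on the non-mitochondrial scale (adjusted p = 0.0383). It also passed with the nuclear copies left out (3.26, adjusted p = 0.0358). The other two genes of the family, Bglap and Bglap2, were listed at 0 in every tumour library, and the sequence they share with Bglap3 makes the split among the 3 uncertain.

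Gm20594, a predicted gene named because it was called with deposited values, is a nuclear relative of the mitochondrial 16S ribosomal RNA mt-Rnr2. It lies at chr6:79817916-79818364 on the plus strand and matched mt-Rnr2 (chrM:1094-2675, plus strand) at 88.4% identity over 439 aligned bases, below the identity asked of the 17 copies. The stretch with the fewest mismatches, 6 in 150 bases, is shown with those bases in capitals.
Gm20594, bases 277 to 426: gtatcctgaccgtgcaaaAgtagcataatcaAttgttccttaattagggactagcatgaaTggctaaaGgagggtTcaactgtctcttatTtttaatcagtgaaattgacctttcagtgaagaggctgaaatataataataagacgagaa
mt-Rnr2, bases 918 to 1067: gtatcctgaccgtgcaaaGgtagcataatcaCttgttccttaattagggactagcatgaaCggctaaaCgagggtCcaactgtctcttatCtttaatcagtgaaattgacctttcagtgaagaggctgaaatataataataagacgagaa

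Gm20594 had deposited values of 1417, 9963, 2896 and 3890 in CMV-GE11-siRE replicates 1 to 4, against 21389, 52601, 94919 and 34245 in CMV-siRE replicates 1 to 4. The log2 difference was -3.62 ± 0.54 (SE; limma adjusted p = 0.0451), and -3.04 ± 0.48 on the non-mitochondrial scale (adjusted p = 0.0404). The 13 mitochondrially encoded genes in the table are all protein-coding, so mt-Rnr2 itself has no value to set beside Gm20594.

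On the non-mitochondrial scale 1912 of 14044 genes passed (13.6%), 1852 higher (13.2%) and 60 lower (0.427%) with CMV-GE11-siRE. The 3 genes called with deposited values were among them. With the nuclear copies left out of the sums as well, 2 genes passed (0.0142%), Bglap3 higher and human EGFR lower (0.00712% each), both also called in the other scalings. The groups were then apart in 10.2% of genes above and 4.06% below. The call of every other gene named from here on therefore rests on the non-mitochondrial scale. Of the 1852 genes higher there, 1378 had an unadjusted p under 0.05 with deposited values. The libraries of the groups were apart in 1507 of the 1912, while over all genes the CMV-GE11-siRE libraries lay above in 22.4% and below in 0.897%. Among the CMV-GE11-siRE libraries, leaving out replicate 1 or 3 gave a count of 0, replicate 2 gave 13 and replicate 4 gave 3. Among the CMV-siRE libraries, leaving out replicate 2 or 4 gave 0, replicate 3 gave 1 and replicate 1 gave 4657.

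Among the 60 genes lower with CMV-GE11-siRE, 13 were the mitochondrially encoded genes, 6 were nuclear copies of them, 11 were other predicted genes and 30 had other names, human EGFR included. All 13 mitochondrially encoded genes fell, with a median log2 difference of -2.69 (-3.28 with deposited values). The lowest was mt-Co1, the catalytic subunit of complex IV, with 239866 to 1729800 in the CMV-GE11-siRE libraries and 2310100 to 8122790 in the CMV-siRE libraries, and it fell by 2.89 ± 0.84 on the log2 scale (SE; limma adjusted p = 0.0438). Both subunits of ATP synthase in the mitochondrial genome, mt-Atp6 and mt-Atp8, fell, with differences of -2.69 and -2.73. Of 14 nuclear genes of oxidative phosphorylation, Ndufs1, the largest subunit of complex I, was called, and it was higher (1.05, and 0.47 with deposited values). The median of that list was 0.14, and -0.44 with deposited values, where 11 of the 14 lay below 0, so it lay below the median of all genes on both scales. A difference between the mitochondrial and the nuclear list was not tested.

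Lars2 and Nudt14 were the only nuclear mouse genes among the lowest 12 that the naming rule gave. Lars2, the mitochondrial leucyl-tRNA synthetase, had 15545, 19688, 15351 and 28569 in CMV-GE11-siRE replicates 1 to 4 and 164117, 38170, 448023 and 104068 in CMV-siRE replicates 1 to 4 on the non-mitochondrial scale. It fell by 2.77 ± 0.77 (log2, SE; limma adjusted p = 0.0425), with -3.36 in deposited values. Its difference on the non-mitochondrial scale was -2.18 when CMV-siRE replicate 3 was left out and -3.36 when replicate 2 of that group was. Nudt14, which hydrolyses nucleotide sugars, had 1083, 7229, 2940 and 2944 with CMV-GE11-siRE and 10288, 19311, 29020 and 23623 with CMV-siRE. It fell by 2.74 ± 0.48 (adjusted p = 0.0404), with -3.33 in deposited values. Both genes were apart between the groups, and in both CMV-siRE replicate 3, the library with the largest mitochondrial share, was highest. A close match to an annotated mitochondrial transcript was found in neither.

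Of the predicted genes, Gm10718 and Gm10800, named after their values were seen, fell by 4.91 and 4.59, with -5.27 and -5.15 in deposited values. Leaving out CMV-siRE replicate 3 put them at -4.30 and -3.88. Gm10718 was also at -4.30 without CMV-GE11-siRE replicate 3, and Gm10800 at -5.19 without CMV-siRE replicate 2. Gm10800 had 49.9, 55.5, 10.6 and 67.4 with CMV-GE11-siRE and 939, 266, 4075 and 742 with CMV-siRE. Further genes lower with CMV-GE11-siRE were Fth1, the ferritin heavy chain that stores iron, also named after its values were seen, which fell by 1.58, Ccng1, the p53 target cyclin G1, which fell by 0.73, and Erg, an ETS factor of the endothelium. With deposited values Fth1 was at -2.16, Ccng1 at -1.32 and Erg at -2.39. Ccng1 was the only one called of 15 genes in the list of p53 targets and apoptosis. On the non-mitochondrial scale 12 of the 15 lay above 0, with a median of 0.36. With deposited values 11 of them lay below 0, with a median of -0.22. Erg had 153, 225, 152 and 113 with CMV-GE11-siRE and 310, 1340, 353 and 623 with CMV-siRE, and fell by 1.81 ± 0.45 (log2, SE; limma adjusted p = 0.0404). It was the only one called of 13 endothelial genes, of which 11 lay above 0 on the non-mitochondrial scale. The median of the endothelial list was 0.39, and -0.19 with deposited values, where 8 lay below 0. Polg, the polymerase that copies mitochondrial DNA, was the only one called of 14 nuclear genes for the upkeep of mitochondrial RNA and DNA. It was higher (1.51, and 0.92 with deposited values), and the median of that list was 0.54 (-0.04 with deposited values). Alb, serum albumin, was the only one called of 6 hepatocyte genes tested and fell by 3.11, with 1.34 to 8.05 in the CMV-GE11-siRE libraries and 16.6 to 73.7 in the CMV-siRE libraries.

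The libraries also differed in depth and in how the difference ran with transcript length and GC content. An approximate depth outside mitochondrial genes and their copies was 17.2, 9.58, 15.5 and 14.6 M in CMV-GE11-siRE replicates 1 to 4 and 7.18, 4.60, 2.40 and 4.68 M in CMV-siRE replicates 1 to 4. Between 18460 and 19920 genes were above 0 in the CMV-GE11-siRE libraries, against 15523 to 18005 in the CMV-siRE libraries. In 4 equal bins of genes from the shortest to the longest transcript, the median log2 difference was -0.18, 0.06, 0.12 and 0.15 with deposited values. On the non-mitochondrial scale the share called higher was 6.70%, 12.2%, 16.0% and 17.8% in these bins. Relative to the mean of the 12 tumour libraries, the longest bin stood above the shortest by 0.23, 0.21, 0.44 and -0.03 (log2) in CMV-GE11-siRE replicates 1 to 4, and by -0.02, -0.14, -0.36 and -0.02 in CMV-siRE replicates 1 to 4. In 4 equal bins from the lowest to the highest GC content, the median log2 difference was -0.10, -0.01, 0.08 and 0.24 with deposited values, and the share called higher on the non-mitochondrial scale was 10.5%, 11.0%, 14.6% and 16.6%. The highest GC bin stood above the lowest by 0.33, 0.18, 0.32 and 0.41 (log2) in CMV-GE11-siRE replicates 1 to 4, and by 0.39, -0.12, -0.28 and -0.06 in CMV-siRE replicates 1 to 4. The part of transcript length, GC content, depth and the mitochondrial share in the results on single genes was not tested beyond the fits named.

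**Figure D3:**
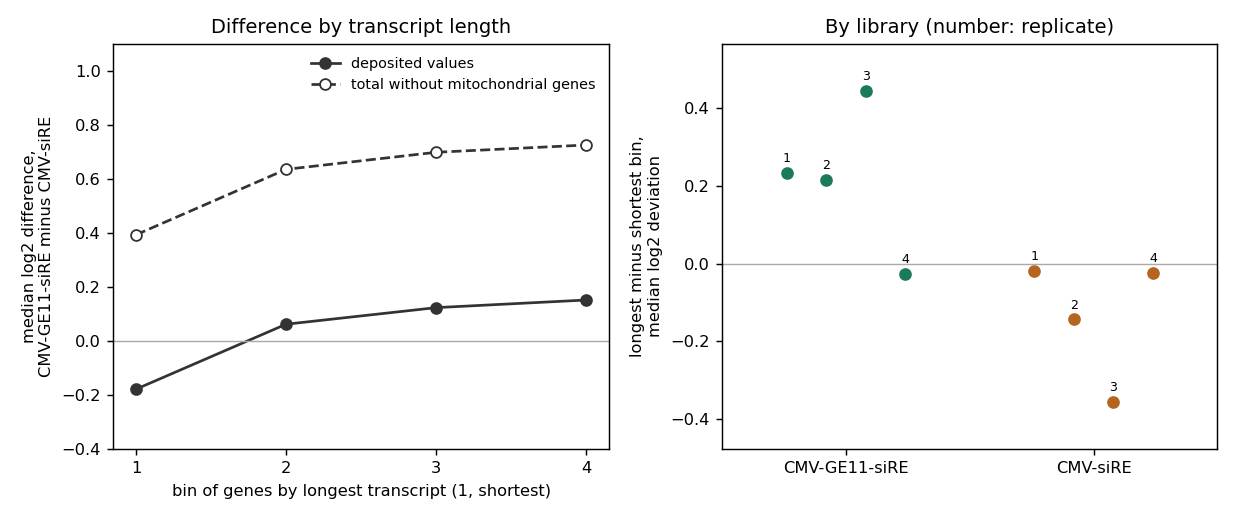
Left, median log2 difference of CMV-GE11-siRE minus CMV-siRE in 4 equal bins of the tested genes by their longest annotated transcript, with deposited values (filled) and on the non-mitochondrial scale (open). Right, how far the longest bin stood above the shortest in each library. The difference grows with length on both scales, and CMV-GE11-siRE replicate 3 and CMV-siRE replicate 3 lie at opposite ends.

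The receptors and ligands of the EGFR family were mostly higher in value with CMV-GE11-siRE, and 2 of 11 tested passed on the non-mitochondrial scale, a share near the 13.2% of all genes called higher there. That background applies to every count of list members called higher, above and below, also where it is not repeated. However, it varied with transcript length. It was 6.70% in the shortest bin and 17.8% in the longest. The median longest transcript of the tested members was 7227 bases for the small RNA machinery, 4627 for lipid synthesis and 4403 for the clock. It was 2525.5 for alveolar type 2 genes, 1999 for epithelia and 1254.5 for cytosolic ribosomal proteins. The part of length in these counts was not tested. Erbb3, the relative with little kinase activity of its own that recruits PI3 kinase, had 1298, 1034, 1699 and 888 in CMV-GE11-siRE replicates 1 to 4, and 752, 426, 114 and 300 in CMV-siRE replicates 1 to 4. The groups did not overlap, and Erbb3 rose by 1.88 ± 0.49 (log2, SE; limma adjusted p = 0.0405), with 1.29 in deposited values. Erbb2, the co-receptor without a known ligand, had 877, 772, 1037 and 878 with CMV-GE11-siRE and 793, 335, 70.2 and 502 with CMV-siRE. Its difference of 1.5 ± 0.57 did not pass (adjusted p = 0.078), and CMV-siRE replicate 1 lay above CMV-GE11-siRE replicate 2. Mouse Egfr itself was low, at 77.7, 28.4, 62.3 and 75.2 with CMV-GE11-siRE and 21.9, 53.9, 2.84 and 109 with CMV-siRE, and overlapped between the groups (1.1 ± 0.80, adjusted p = 0.328). Erbb4 was under the filter on low values.

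Among 8 ligands tested, Hbegf, a membrane-bound growth factor released by shedding, passed. It had 522, 498, 442 and 381 with CMV-GE11-siRE and 276, 218, 108 and 280 with CMV-siRE, and rose by 1.14 ± 0.29 (log2, SE; limma adjusted p = 0.0405), with 0.56 in deposited values. Areg and Ereg, the ligands with the highest values, differed by 1.34 ± 0.85 and 1.31 ± 1.22 and did not pass (adjusted p = 0.261 and 0.448). Areg had 1222, 924, 926 and 663 with CMV-GE11-siRE and 597, 462, 73.7 and 822 with CMV-siRE, where replicate 4 reached into the other group. Egf and Nrg2 were under the filter. The ligands' median was 1.33 on the non-mitochondrial scale and 0.74 with deposited values, beside 0.62 and 0.05 over all genes.

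Downstream of the receptor, genes stood near the median of all genes. The 16 signal adaptors and kinases had a median of 0.52 (-0.07 with deposited values), and 2 were called, each higher, beside 13.2% of all genes. They were Shc1, the adaptor that binds phosphorylated EGFR (0.73), and Stat3, a transcription factor it activates (0.75). With deposited values Shc1 and Stat3 were at 0.15 and 0.17, neither passed, and both overlapped between the groups. The 16 tested genes of MAP kinase feedback and its ETS targets had a median of 0.62, the same as all genes. Of these, 3 were called, each higher, beside 13.2% of all genes. Myc, the growth-driving transcription factor, had 198, 199, 218 and 209 in CMV-GE11-siRE replicates 1 to 4 and 137, 105, 50.2 and 53.1 in CMV-siRE replicates 1 to 4. It rose by 1.37 ± 0.33 (log2, SE; limma adjusted p = 0.0404), and its groups were apart with deposited values as well, where its difference was 0.79. Spry1, a Sprouty inhibitor, rose by 1.12 ± 0.24 and Dusp6, the phosphatase of ERK, by 0.75 ± 0.21 (adjusted p = 0.0404 and 0.0426). With deposited values the 3 genes differed by 0.79, 0.53 and 0.17, and none passed. In Dusp6 the CMV-GE11-siRE libraries had 1998, 2058, 2164 and 1639 and the CMV-siRE libraries 1398, 1396, 1041 and 894. Ccnd1, cyclin D1, named after its values were seen, overlapped between the groups (-0.10).

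Genes of alveolar type 2 cells had the highest median of the lung epithelial lists, at 1.62 (1.03 with deposited values), and 8 of 16 passed on the non-mitochondrial scale, each higher, beside 13.2% of all genes. On that scale all CMV-GE11-siRE libraries lay above all CMV-siRE libraries in 4 of the 16, beside 22.4% of all genes. With deposited values none passed, and 1 of the 16 was apart in this way, beside 6.0% of all genes. Surfactant genes were abundant in every tumour library. The summed deposited values of the 16 genes were 641175, 546085, 421097 and 545269 in CMV-GE11-siRE replicates 1 to 4, and 784057, 153382, 188498 and 257016 in CMV-siRE replicates 1 to 4. CMV-siRE replicate 1 thus stood above all CMV-GE11-siRE libraries and the other three CMV-siRE libraries below them. Lpcat1, which remodels the main lipid of surfactant, had 7869, 11622, 11335 and 3707 with CMV-GE11-siRE and 3013, 2011, 715 and 1923 with CMV-siRE on the non-mitochondrial scale. It rose by 2.21 ± 0.43 (log2, SE; limma adjusted p = 0.0404), with 1.63 in deposited values. The lipid transporter Abca3, the phosphate transporter Slc34a2 and the mucin Muc1 rose by 1.96, 1.85 and 1.78. Abca3 and Slc34a2 overlapped between the groups on both scales. Abca3 was at 2.56 without CMV-siRE replicate 1. Sftpc, surfactant protein C and the most abundant of the list, differed by 1.60 ± 0.59 and did not pass (adjusted p = 0.0736). It had 395922 to 647015 with CMV-GE11-siRE and 81909 to 691814 with CMV-siRE, the highest in replicate 1.

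Of 12 genes shared by epithelia, 4 passed and were higher, beside 13.2% of all genes, which were the tight junction protein Cldn7 (2.03), Cdh1, E-cadherin (1.70), the adhesion molecule Epcam (1.55) and the splicing factor Esrp1 (1.05). Cldn7 was at 1.43 when CMV-siRE replicate 3 was left out and at 2.62 when replicate 1 of that group was. The keratins of the list did not pass, and with deposited values their differences lay below 0. Of 7 club cell genes Sftpd, a surfactant protein also in the type 2 list, passed (1.70). Scgb1a1, the main club cell secretory protein, ranged from 1247 to 22618 in the CMV-GE11-siRE libraries and from 711 to 18727 in the CMV-siRE libraries. The 12 alveolar type 1 genes had a median of 0.23, and of -0.34 with deposited values, where 7 lay below 0. Of these 12 genes Vegfa, a growth factor for vessels that is also in the hypoxia list, passed and was higher. It had 7985, 5760, 13414 and 5204 with CMV-GE11-siRE and 3827, 1584, 215 and 1714 with CMV-siRE, and rose by 2.62 ± 0.69 (log2, SE; limma adjusted p = 0.0405), with 2.04 in deposited values. Without CMV-siRE replicate 3 the difference was 1.79. None of 8 ciliated cell genes passed.

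B and plasma cell genes had the highest median of the lists with at least 6 members tested, at 2.91 (2.34 with deposited values), and it followed single libraries. Their summed deposited values were 15213, 3026, 2137 and 96343 in CMV-GE11-siRE replicates 1 to 4, and 2575, 1615, 2252 and 1403 in CMV-siRE replicates 1 to 4. Of 12 genes 3 were called, each higher, beside 13.2% of all genes. Ighg2b, an immunoglobulin heavy chain, had 2258, 168, 38.1 and 26860 with CMV-GE11-siRE and 18.8, 10.4, 15.4 and 32.0 with CMV-siRE. Its log2 difference of 5.41 ± 1.57 (SE; limma adjusted p = 0.0437) was 3.72 without CMV-GE11-siRE replicate 4, 6.86 without replicate 3 and 6.16 without replicate 2 of that group. Cd79a, of the B cell receptor, had 47.5, 29.98, 36.1 and 881 with CMV-GE11-siRE and 5.603, 23.8, 0 and 3.57 with CMV-siRE. Its difference was 4.0, and 2.87 without CMV-GE11-siRE replicate 4. Leaving out CMV-siRE replicate 3 gave 3.20, and leaving out replicate 2 of that group gave 4.75. Xbp1, a transcription factor of secretory cells that epithelium expresses too, was even across the CMV-GE11-siRE libraries, at 2595, 1991, 2111 and 2055, against 1719, 807, 424 and 727 with CMV-siRE, and rose by 1.43.

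Blood genes set CMV-siRE replicate 4 apart. Hba-a1, a haemoglobin chain, had 4918, 4695, 5056 and 8576 in CMV-GE11-siRE replicates 1 to 4 and 1366, 13666, 640 and 167864 in CMV-siRE replicates 1 to 4. S100a9, a neutrophil protein, had 328, 22.7, 411 and 116 with CMV-GE11-siRE and 141, 38.6, 118 and 6605 with CMV-siRE. None of 6 erythroid and none of 7 neutrophil genes passed, and the sign of both genes turned without that library. Of 11 macrophage genes Mrc1, the mannose receptor, passed and was higher (1.45, and 0.86 with deposited values). The macrophage list had a median of 0.31, and of -0.28 with deposited values, where 7 of the 11 lay below 0. None of 11 T and NK cell genes passed. Expression of the Y-linked gene Ddx3y was above 100 in CMV-GE11-siRE replicate 2 and in CMV-siRE replicates 2 and 4, so the groups are not matched for it.

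**Figure D4:**
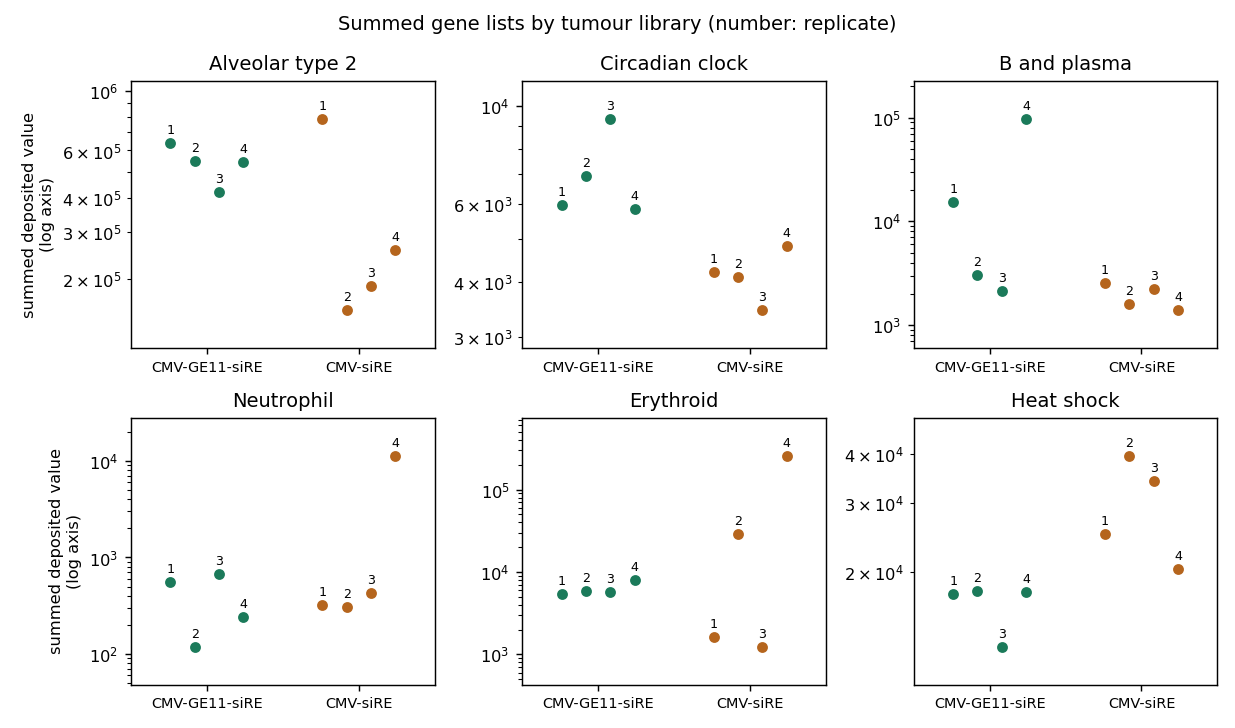
Summed deposited values of 6 gene lists in each tumour library (log axes), with replicate numbers, CMV-GE11-siRE at left in each panel. Single libraries lead in the blood panels and in B and plasma cell genes, CMV-siRE replicate 1 leads in alveolar type 2 genes, and the clock and heat shock sums do not overlap between the groups.

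The summed deposited values of circadian clock genes did not overlap between the groups. They were 5953, 6948, 9319 and 5851 in CMV-GE11-siRE replicates 1 to 4 and 4208, 4100, 3454 and 4821 in CMV-siRE replicates 1 to 4. The median of the 15 genes was 0.97 on the non-mitochondrial scale and 0.39 with deposited values. With deposited values 5 of them lay below 0. In 1 of these genes all CMV-GE11-siRE libraries lay below all CMV-siRE libraries, beside 7.05% of all genes. On the non-mitochondrial scale 5 of 15 were called, each higher, beside 13.2% of all genes. Per3, a repressor of the clock, had 666, 1086, 1366 and 930 with CMV-GE11-siRE and 272, 362, 92.7 and 198 with CMV-siRE, and rose by 2.24 ± 0.38 (log2, SE; limma adjusted p = 0.0404). Its relative Per2 rose by 1.86, Tef, an output factor of the clock, by 2.07, the nuclear receptor Nr1d2 by 1.09 and the repressor Cry2, named after its values were seen, by 1.06. Tef, Per2 and Per3 were apart between the groups with deposited values too, at 1.49, 1.28 and 1.66. The core activators Clock and Arntl, named after their values were seen, were at 0.48 and 0.55 and did not pass. The labels give no hour of collection.

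Cell cycle genes had a median of 1.00 (0.44 with deposited values), and 4 of 24 were called, each higher, a share near the 13.2% of all genes. Foxm1, which drives mitotic genes, had 174, 176, 96.2 and 151 with CMV-GE11-siRE and 72.5, 55.0, 15.7 and 28.1 with CMV-siRE, and rose by 1.96 ± 0.45 (log2, SE; limma adjusted p = 0.0404), with 1.39 in deposited values. The replication factor Mcm3 rose by 1.70, Ccne2, cyclin E2, by 1.43 and the topoisomerase Top2a by 1.23. Mki67, the proliferation marker, named after its values were seen, was at 1.22 and did not pass (adjusted p = 0.0644).

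In lipid synthesis 6 of 13 genes were called, each higher, beside 13.2% of all genes, with a median of 0.89 (0.30 with deposited values). Srebf1, the main activator of fatty acid synthesis, had 1729, 1666, 2900 and 1420 with CMV-GE11-siRE and 1309, 238, 149 and 699 with CMV-siRE, and rose by 2.12 ± 0.55 (log2, SE; limma adjusted p = 0.0405), with 1.54 in deposited values. The desaturase Scd2 rose by 1.49. Fasn, fatty acid synthase, named after its values were seen, was at 0.91 and did not pass.

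Of 13 genes of the small RNA machinery, which the siRNA relies on, 4 were called, each higher, beside 13.2% of all genes, with a median of 0.93 (0.34 with deposited values). They were Ago4 (1.44), an Argonaute, Tnrc6a (1.46), its partner in silencing, Dgcr8 (1.32), of the microRNA processing complex, and Xpo5 (1.02), the export receptor of precursor microRNAs. With deposited values Tnrc6a was at 0.88, Dgcr8 at 0.74 and Xpo5 at 0.43. Ago4 had 445, 458, 677 and 411 with CMV-GE11-siRE and 318, 176, 89.1 and 204 with CMV-siRE, and its deposited difference was 0.86. Ago2, the Argonaute that cleaves its targets, named after its values were seen, overlapped between the groups at 485, 548, 588 and 371 with CMV-GE11-siRE and 367, 409, 301 and 361 with CMV-siRE (0.46 ± 0.24, adjusted p = 0.181). Of 15 identifiers of vesicle genes Pdcd6ip, the ESCRT partner Alix, passed and was higher (1.00, and 0.41 with deposited values). The vesicle list had a median of 0.34, and of -0.24 with deposited values, where 10 of the 15 lay below 0.

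Several lists lay below the median of all genes on both scales. Heat shock genes had a median of -0.75 with deposited values, where all 10 lay below 0 and in 4 all CMV-GE11-siRE libraries lay below all CMV-siRE libraries, beside 7.05% of all genes, and of -0.17 on the non-mitochondrial scale, with none called. Their summed deposited values were 17605, 17882, 12901 and 17814 with CMV-GE11-siRE and 24996, 39475, 34112 and 20355 with CMV-siRE. On the non-mitochondrial scale the sums overlapped, at 19001.6 to 25703.7 with CMV-GE11-siRE and 20038.5 to 41822.3 with CMV-siRE. The inducible Hspa1a and Hspa1b, named after their values were seen, were at -2.95 and -2.56 with deposited values, with the highest level in CMV-siRE replicate 2. Type I interferon genes had a median of -0.76 and -0.18. Of the 21 only Stat2, a signal transducer of the interferon receptor, was called, higher (1.27, and 0.68 with deposited values). Ribosomal protein genes of the cytosol had a median of -0.60 and -0.01. Of the 16 only Rpl5, of the large subunit, was called, and it was higher (1.5, and 0.92 with deposited values).

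**Figure D5:**
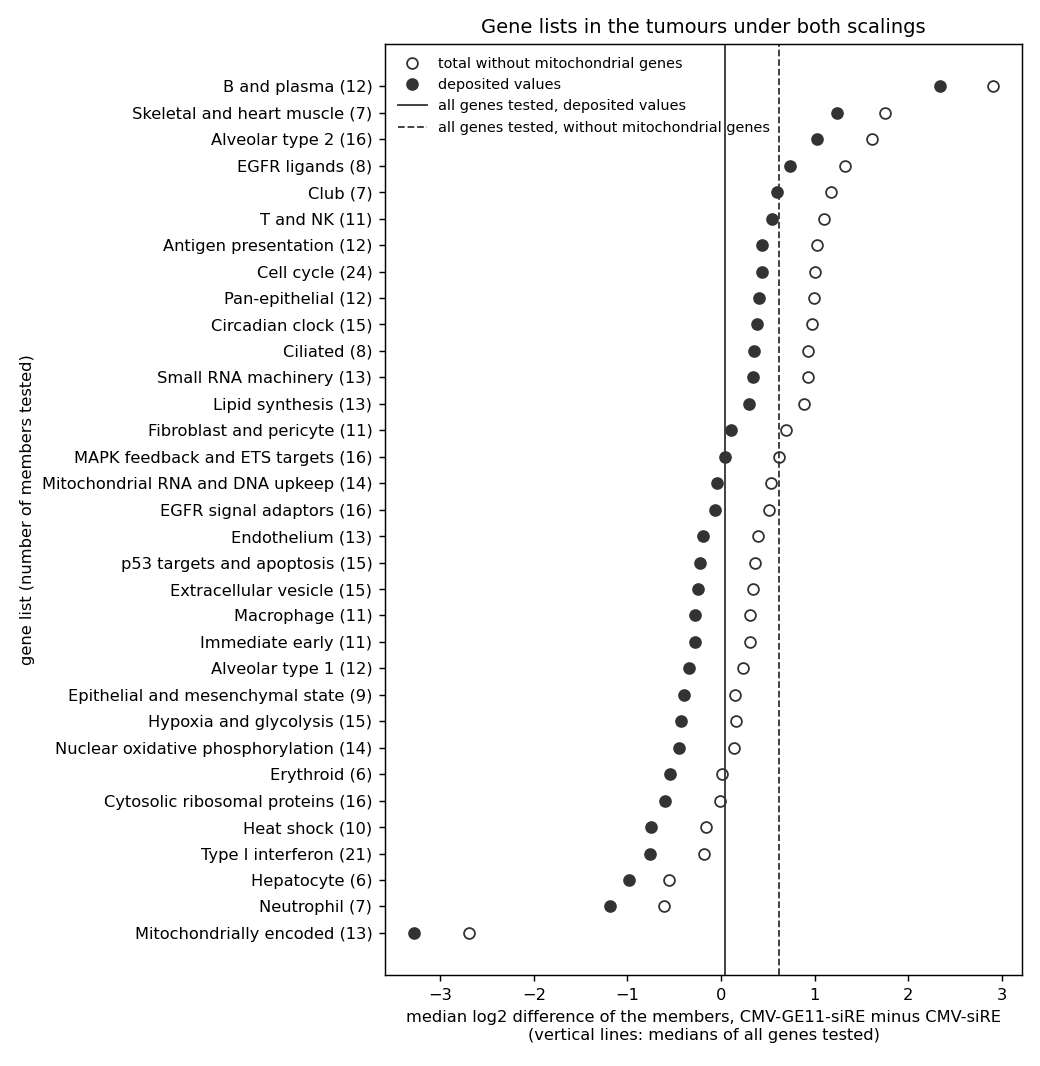
Median log2 difference of each gene list with at least 6 members tested, CMV-GE11-siRE minus CMV-siRE, with deposited values (filled) and on the non-mitochondrial scale (open). The vertical lines are the medians of all genes tested, 0.05 and 0.62. The mitochondrially encoded genes lie farthest to the left on both scales, and the B and plasma cell genes farthest to the right.

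The highest genes that the naming rule gave on the non-mitochondrial scale, besides those named, included Celsr2, a cadherin of planar polarity (3.72), the mitotic checkpoint gene Zwilch (3.07), the amino acid transporter Slc6a20a (3.0) and Sec61a2, of the protein translocation channel (2.95). Celsr2 had 178, 135, 441 and 111 with CMV-GE11-siRE and 65.3, 27.7, 0 and 20.05 with CMV-siRE, and its deposited difference was 3.29. Its difference on the non-mitochondrial scale was 2.45 when CMV-siRE replicate 3 was left out and 4.46 when replicate 1 of that group was. In each of these genes CMV-siRE replicate 3, the library with the least depth outside mitochondrial sequence, was the lowest. Several of the genes named share exon bases with a neighbour on the other strand, such as Stat3 with Stat5a, Erbb2 with Mien1 and Ndufs1 with Eef1b2, and reads there cannot be told apart if counting ignored strand.

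Genes of skeletal and heart muscle had a median of 1.75 (1.24 with deposited values), and of 7 tested Myh7, a cardiac myosin, was called and was higher (1.53). Their summed deposited values overlapped between the groups, at 2095, 2563, 1752 and 2888 with CMV-GE11-siRE and 1548, 499, 733 and 3289 with CMV-siRE. The median difference was 0.69 over 11 fibroblast and pericyte genes, 1.02 over 12 antigen presentation genes and 0.30 over 11 immediate early genes, beside 0.62 over all genes tested.

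The same contrast was also fitted in the other tissues. With deposited values limma called 10 of 16165 genes in lung (0.0619%), 1 of 14484 in liver (0.0069%), 0 of 15105 in kidney (0.0%), 18 of 16015 in spleen (0.112%) and 0 of 16421 in thymus (0.0%). At an unadjusted p under 0.05 lung had 1612 genes, liver 1110, kidney 599, spleen 1568 and thymus 461, against 3677 of 14044 in the tumours. With sums without mitochondrial genes, kidney and thymus again had 0 called. The median size of the log2 difference was 0.13 to 0.16 in these tissues and 0.49 in the tumours. Whether the tumour difference exceeds that of an organ was not tested, as the tissues were normalized separately.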

How the data were processed

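Total RNA was extracted with TRIzol and made into libraries with a TruSeq RNA kit, per the labels' protocols. The authors deposited 1 table of normalized gene signal per tissue, and the submitters' processing notes name DESeq2 without its role. The aligner, counter, annotation and genome build are not stated in the sources used here. The values are not whole numbers and whole reads could not be recovered, so the count test that had been planned was replaced by limma 3.58.1 (limma-trend) in R 4.3.3 on log2(value + 1). Of the mouse identifiers 35968 carried GENCODE M21 versions (GRCm38) and 79 did not.

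Genes at 10 or more in at least 4 of the 12 tumour libraries were tested, with 1 mean per circuit and no covariate, Benjamini-Hochberg adjustment over all genes and a threshold of 0.05. The log2 scale with its pseudocount of 1 understates changes of low genes. The non-mitochondrial scale multiplies a library so that its summed signal without the 13 mitochondrially encoded genes equals the mean of the tumour libraries. Single values were compared by two-sided exact permutation (SciPy 1.17.1). Nuclear copies of mitochondrial transcripts were found with BLAST+ 2.17.0 among GENCODE M21 transcripts. Depth was taken as the column total over the most frequent positive value under 5, and was about 15.1 to 19.6 M (mega) in these 8 libraries. No counting interval was attached, and precision is judged from how the libraries of a group vary. Transcript length is that of the longest GENCODE transcript of a gene and had a value for 14037 of the 14044 genes. The script was tested on simulated data.

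The named genes are, per scaling, up to 12 highest and 12 lowest that passed, had a mean of at least 50, were apart between the groups and had no predicted or clone name, all genes called with deposited values, and up to 4 called members of each list (or, with none called, up to 2 of the most abundant). Genes outside that rule are marked, except the receptors and ligands of the EGFR family, whose list is given in full, and Sftpc and Scgb1a1. Not all named by the rule are printed, and some are not reported here because they are withheld. The members, the lists and the tests were chosen with earlier results of these data known.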

Additional observations from a re-analysis of the deposited data

Results flagged for a closer look

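Of 88 groups of 4 libraries examined for a library far from the other 3, 7 held one, where chance would give about 1 in 20. The values are log2 of a list's summed deposited values. CMV-GE11-siRE replicate 1 stood apart in endothelial genes, at 12.6092. CMV-GE11-siRE replicate 2 stood apart in sex-linked genes, at 10.3659, replicate 3 in heat shock genes, at 13.6553, and replicate 4 in lipid synthesis genes, at 13.4958. CMV-siRE replicate 3, with the largest mitochondrial share, stood apart in nuclear oxidative phosphorylation genes, at 14.0654, and in p53 target genes, at 14.1195. CMV-siRE replicate 4 stood apart in neutrophil genes, at 13.4646.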

How the results depend on the processing

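With deposited values 3 genes were called. The number was 1 with Y-linked expression as a covariate or a pseudocount of 0.1, 0 when the fit held just these 8 libraries or took the mitochondrial share as covariate, 11 without the filter on low values, 3275 with array quality weights and 10826 with scaling by the column total. Leaving out 1 library gave 1 to 3176, the highest without CMV-siRE replicate 1. On the non-mitochondrial scale 1912 were called. The number was 0 with Y-linked expression or mitochondrial share as covariate, in the fit of 8 libraries, or with both replicates numbered 4 left out, 432 without the filter, 5278 with array quality weights, 10826 with scaling by the column total and 2 with the nuclear copies left out. Leaving out 1 library gave 0 to 4657. The cause was not tested. The Y-linked covariate, the scaling without copies and the fits without the replicates numbered 4 were chosen after seeing the data.

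The libraries share replicate numbers, but same-numbered libraries correlated at -0.14 to 0.09 in their deviations, so the numbers were not taken as pairs. With the replicate block 7 genes were called with deposited values, and 2405 on the non-mitochondrial scale. Human EGFR was called in both.

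Human EGFR stayed below 0 in every alternative. On the non-mitochondrial scale it did not pass in the fit of 8 libraries (-2.73), with Y-linked expression (-2.75) or mitochondrial share (-3.43) as covariate, or with both replicates numbered 4 left out (-2.72), and it ranged from -2.99 to -2.42 without 1 library, failing without CMV-GE11-siRE replicate 1 or 3 or CMV-siRE replicate 2 or 4. With deposited values it did not pass in the fit of 8 libraries (-3.31) or with mitochondrial share (-3.36). Without 1 library the log2 ratio of human EGFR to mouse Egfr ranged from -4.54 to -3.12, to epithelial genes from -3.68 to -3.10, to alveolar type 2 genes from -4.71 to -3.99, to club genes from -4.43 to -3.50, and the mitochondrial share from -45.3 to -35.1 percentage points; 3 against 4 libraries cannot go below an exact permutation p of 0.0571. List medians less that of all genes (deposited values) ranged without 1 library from 0.079 to 0.45 for the clock, -0.12 to 0.047 for mitochondrial upkeep, 2.83 to 3.49 for the osteocalcin family, 0.20 to 0.60 for the small RNA machinery, 0.78 to 1.47 for alveolar type 2, 0.34 to 1.24 for the EGFR receptors, 0.53 to 0.89 for their ligands, 1.03 to 2.98 for B and plasma cells, 0.86 to 2.04 for muscle, -0.13 to 1.11 for club cells, 0.23 to 0.77 for the cell cycle, 0.0995 to 0.34 for lipid synthesis, 0.25 to 0.42 for epithelia and -1.03 to -0.64 for heat shock.

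The mitochondrial share is the summed share of the mitochondrially encoded genes, and it did not overlap between the groups. A fit with it as a covariate can therefore hardly tell circuit and share apart. In the mitochondrially encoded genes the covariate takes up their own difference, so a turned sign there is no result about them. Of the genes named on the non-mitochondrial scale, some turned their sign. With the mitochondrial share as a covariate these were mt-Co1 (0.20), mt-Nd2 (0.14), mt-Nd4 (0.30), mt-Nd4l (0.34), mt-Nd5 (0.32), mt-Atp8 (0.24), mt-Atp6 (0.27), mt-Cytb (0.37), mt-Co3 (0.15), Nudt14 (0.12), Xpo5 (-0.19), Egfr (-1.27), Stat2 (-0.60), Scgb1a1 (-0.99), Xbp1 (-0.016), Tnrc6a (-0.54), Rpl5 (-0.14), Erbb2 (-0.56), Sftpc (-0.43), Sftpd (-0.52), Muc1 (-0.060), Abca3 (-0.21), Cldn7 (-0.071), Srebf1 (-0.12), Vegfa (-0.21), Cftr (-0.27) and Celsr2 (-0.37). With scaling by the column total they were S100a9 (0.13), Ccng1 (0.29) and Hba-a1 (0.77). With both replicates numbered 4 left out they were S100a9 (0.76) and Hba-a1 (1.1), with Y-linked expression as a covariate Hba-a1 (0.35), and without 1 library S100a9 (-1.79 to 0.68) and Hba-a1 (-1.38 to 1.30). Size factors of DESeq2 and TMM were not run, because the values are not counts. The depth outside mitochondrial sequence limits low genes most in CMV-siRE replicate 3.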
